A study of Mus musculus with 6 samples.

Results

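The subject is the 2'-5'-oligoadenylate synthetase (OAS) family of the mouse liver: Oas1a, Oas1b, Oas1g, Oas2, Oas3, Oasl1 and Oasl2, taken by name from a deposited expression table. All 7 genes were among the 8390 of the table. Gene expression was measured by RNA sequencing of whole liver in C57BL/6 mice, an inbred laboratory strain, with 3 libraries in each of 2 groups. The LV group had received 3e8 transducing units of a lentiviral vector, a particle derived from a retrovirus, by intravenous injection, and livers were taken 4 h later. The other group was untreated, and neither group's age or sex is stated in the labels used here. The samples include no mock-injected mice, so the vector and the injection cannot be told apart. The labels do not say whether the replicates were separate mice, and the p-values cover the spread of these samples alone.

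OAS enzymes are antiviral sensors. On binding double-stranded RNA, an active synthetase joins ATP into short 2'-5'-linked chains of adenylate (2-5A), a messenger that serves antiviral defence inside the cell. The genes are classic interferon targets: transcription factor complexes that hold Stat2 and Irf9 bind interferon-stimulated response elements (ISREs) in their promoters. The mouse carries many Oas1 copies, of which Oas1a and Oas1g encode active synthetases and several others encode proteins without that activity.

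The promoter windows of 5 family genes are shown first, 120 bases each, so that the letters of the ISRE can be looked for in them; some windows hold its core and others do not. They come from RefSeq on build GRCm38.p6, read 5′ to 3′ along the gene. Each ends at the base before the annotated start, except that of Oasl1, which covers bases 217 to 98 upstream because another RefSeq transcript starts within the nearer bases. Capitals mark matches to the ISRE core, GAAA followed after any 2 bases by another GAAA, on either strand; in Oasl1, which has no such match, they mark GAAACT, the letters that end the longer form of the ISRE.
Oas1a: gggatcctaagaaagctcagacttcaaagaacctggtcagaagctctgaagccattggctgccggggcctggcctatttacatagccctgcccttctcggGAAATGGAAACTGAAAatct
Oas1g: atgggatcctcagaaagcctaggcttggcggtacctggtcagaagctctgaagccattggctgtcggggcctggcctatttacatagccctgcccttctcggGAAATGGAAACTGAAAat
Oas1c: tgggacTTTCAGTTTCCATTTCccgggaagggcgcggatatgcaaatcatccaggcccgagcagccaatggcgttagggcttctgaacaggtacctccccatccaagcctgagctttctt
Oas3: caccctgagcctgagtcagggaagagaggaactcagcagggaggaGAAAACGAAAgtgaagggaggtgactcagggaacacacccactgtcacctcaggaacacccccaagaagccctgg
Oasl1: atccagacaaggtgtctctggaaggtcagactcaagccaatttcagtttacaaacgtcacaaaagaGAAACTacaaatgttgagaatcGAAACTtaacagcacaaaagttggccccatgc

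The windows lie at chr5:120907526-120907645 (Oas1a), chr5:120887614-120887733 (Oas1g), chr5:120812515-120812634 (Oas1c) and chr5:120777660-120777779 (Oas3), all on the minus strand, and at chr5:114923023-114923142 on the plus strand (Oasl1). Oas1c is a further family gene of the table, outside the 7 members. The Oas1a and Oas1g windows were alike at 108 of 122 aligned columns (88.5%), and both held the 16 letters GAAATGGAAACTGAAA, which are 2 overlapping ISRE cores. In Oas1a these letters began 20 bases upstream of the start and in Oas1g 18 bases upstream. The Oas1c window held the same 16 letters on the opposite strand, beginning 114 bases upstream. Of the 32851 windows of 300 bases in the promoter table, 7 held this element, and they belonged to 5 genes: Oas1a, Oas1c, Oas1g, Apol9a and Apol9b. The element was picked out after the windows had been seen. The ISRE core alone was found in 3.44% of all windows, in 3.93% of the 5875 tested genes with a window, and in 22.1% of the 217 genes with a window that were higher in LV livers. The 300-base windows of Oasl1 and Oasl2 held no match to this core, and that of Oasl2 held none to any of the motifs searched. GAAACT stood 2 times in the Oasl1 window, and 1.51% of all windows held at least 2 copies. The core of the interferon-gamma element, TTC and GAA with any 3 bases between them, was found in Oas1a alone among the 6 Oas genes with a window and in 8.3% of all windows. This interferon-gamma core was found in 8.22% of the tested genes with a window and in 15.2% of those higher in LV livers. For GAAACT, in any number of copies, these shares were 16.0% and 32.7%. All these matches describe letters and were not tested for binding.

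Sequence likeness also bears on what the values of Oas1a and Oas1g mean. In the GENCODE M21 transcripts, 57.6% of the 50-base stretches of Oas1a occurred unchanged in Oas1g, and 54.1% of those of Oas1g in Oas1a. For stretches of 100 bases the shares were 40.9% and 38.2%. Reads from such stretches cannot be assigned to 1 of the pair, and no source used here gives the counting rule or read length, so the split between Oas1a and Oas1g is uncertain. The other members shared little: 3.42% of the 50-base stretches of Oas1b and 0.792% of those of Oas3 occurred in another gene, and 0 of those of Oas2, Oasl1 or Oasl2.

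The values are whole numbers that behave as rounded levels scaled for library size and transcript length; no unit is named, and read depth is unknown. Column sums ran from 497295 to 526009. The male-biased liver genes Elovl3 and Cyp4a12a had values of 136 to 186 in LV replicate 3 and untreated replicate 2 and at most 4 in each of the other libraries, so results were also computed without this pair. Hepatocyte markers, 8 of 8 measured, summed to between 64741 and 94559 in every library, as the tissue label says.

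Every member was higher in each LV library than in any untreated library, a pattern seen in 8.65% of the 8386 genes tested. In limma, with Benjamini-Hochberg adjustment and a threshold of 0.05, 6 of the 7 members rose, and Oas3 did not pass; 3.76% of all tested genes were called higher. The median log2 fold change, a difference of mean log2(value + 1) that understates the change of low genes, was 2.54 over the members and -0.07 over all tested genes. All 7 passed the filter on low values, but Oas3 did so only through its LV libraries (2, 5 and 3, against 1, 0 and 0 untreated). Oas1a, Oas1b, Oas2 and Oas3 had untreated means below 2, as did only 2.27% of all tested genes. The filter removed few genes, since 8386 of the 8390 in the table passed it. How genes were chosen for the deposited table is not stated in the sources used here. Members this low when untreated may be in it only through their LV values. Such a choice would favour a gap between the groups in advance. The calls of Oas1a, Oas1b, Oas1g, Oasl1 and Oasl2 held under each alternative computed, including the fit without LV replicate 3 and untreated replicate 2.

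**Figure D1:**
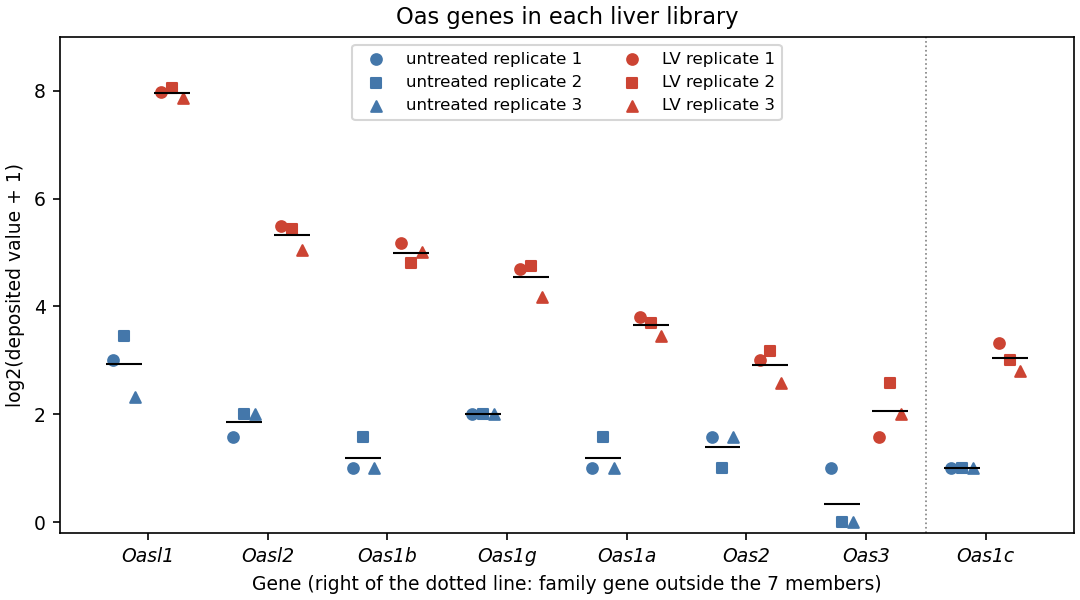
Deposited values of the 7 members and of Oas1c as log2(value + 1), 1 point per library (blue, untreated; red, LV; symbols, replicates) with group means as lines. In each gene the 3 LV points lie above the 3 untreated points; Oasl1 is the highest gene in both groups and Oas3 the lowest.

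Oasl1 gave the largest rise. Its protein has a synthetase-like fold without 2-5A activity, ends in ubiquitin-like domains, and is known to hold back translation of Irf7. Its values were 250, 265 and 231 in LV replicates 1, 2 and 3 and 7, 10 and 4 in untreated replicates 1, 2 and 3. The LV libraries lay close together, and the gap to the untreated ones was far wider than either spread. The log2 fold change was 5.03 ± 0.29 (SE; limma adjusted p = 0.00144), the 16th largest of the 8386 genes tested. The ratio of the mean values was 35.5, and would be 33.1 at the lowest if each value had been rounded to the nearest whole number.

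Oasl2, its neighbour on the chromosome, also has ubiquitin-like domains but keeps synthetase activity. It had 44, 42 and 32 in the LV libraries and 2, 3 and 3 in the untreated ones. LV replicate 3 was the lowest of the treated livers, though still well above every untreated value. The log2 fold change was 3.46 ± 0.18 (limma adjusted p = 0.00144), and the ratio of means was 14.8, or 12.3 at the lowest with rounding. The log2 ratio of Oasl1 to Oasl2 was 2.64 in LV and 1.07 in untreated livers, a difference of 1.58 ± 0.38 (SE, n = 3 per group) whose groups did not overlap (exact permutation p = 0.1, the smallest that 3 against 3 can give).

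Oas1b was the Oas1 gene with the largest rise. A full-length Oas1b protein restricts flaviviruses in wild mice, and most laboratory strains, C57BL/6 among them, carry a premature stop codon in it. RefSeq accordingly lists the gene of this strain as a transcribed pseudogene. Its values were 35, 27 and 31 in LV livers against 1, 2 and 1 in untreated livers. Treated livers were thus similar to one another, and all were far above the untreated level. The log2 fold change was 3.80 ± 0.20 (limma adjusted p = 0.00144), and the ratio of means was 23.3, or 16.6 at the lowest with rounding. Among the members, only Oasl1 and Oasl2 had a higher mean level in LV livers, and the ranges of Oasl2 and Oas1b overlapped.

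Oas1g and Oas1a, the close Oas1 copies that encode active synthetases, both rose. Oas1g had 25, 26 and 17 in LV livers against 3, 3 and 3 in the untreated ones. Values of Oas1a were 13, 12 and 10 with the vector and 1, 2 and 1 without. In both, LV replicate 3 was the lowest treated liver and no LV value came near the untreated ones. Log2 fold changes were 2.54 ± 0.17 for Oas1g (limma adjusted p = 0.00181) and 2.46 ± 0.20 for Oas1a (adjusted p = 0.00311). The log2 ratio of Oas1a to Oas1g was -0.89 in LV and -0.81 in untreated livers, a difference of -0.08 ± 0.22 (SE) with overlapping groups (exact permutation p = 0.8), subject to the shared sequence described above. Between Oas1b and Oas1g the difference in log2 fold change was 1.26 ± 0.30 (SE), without overlap between the groups (exact permutation p = 0.1, the smallest possible).

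Oas2 and Oas3, the larger synthetases built from repeated OAS units, had the lowest levels in LV livers. Oas2 also had the smallest fold change of the members, while the place of Oas3 among the fold changes depended on how its zeros were treated. Oas2 had 7, 8 and 5 in LV livers against 2, 1 and 2 in the untreated ones (log2 fold change 1.53 ± 0.23, limma adjusted p = 0.0267). Leaving out any single library other than LV replicate 3 ended its call, with adjusted p values between 0.0568 and 0.123. Oas3 had 2, 5 and 3 in LV libraries, and 1, 0 and 0 in untreated libraries. The groups did not overlap, but the log2 fold change of 1.72 ± 0.38 did not pass in limma (adjusted p = 0.0762). It did pass with scaling by the median of ratios (adjusted p = 0.0298) or by the upper quartile (adjusted p = 0.0321). With a pseudocount of 0.1 in place of 1, the log2 fold change of Oas3 was 3.85 (limma adjusted p = 0.126), above those of Oas1a (3.10) and Oas1g (2.85) and next to that of Oasl2 (3.84). Both genes lie where rounding to whole numbers is coarse. The ratio of means was 4.0 for Oas2 and would be 2.85 at the lowest with rounding. For Oas3 it was 10, above the 8.75 of Oas1a and the 7.56 of Oas1g, and would be 3.4 at the lowest.

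Oas1c, whose protein is not an active synthetase, had 9, 7 and 6 in LV livers and 1 in each untreated library (log2 fold change 2.04 ± 0.14, limma adjusted p = 0.00181). Of its 50-base stretches, 16.3% occurred in other genes, among them Oas1d, Oas1e, Oas1f and Oas1h. Of its 100-base stretches, 4.47% did, in Gm43069 alone. Its value is thus uncertain too, though less of its sequence was shared than for Oas1a or Oas1g. Oas1d, Oas1e, Oas1f and Oas1h were not among the genes of the table.

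The order of levels differed between the groups. On the length-scaled values, LV livers ran Oasl1 (248.7 ± 17, mean ± SD, n = 3), Oasl2 (39.3 ± 6.43), Oas1b (31 ± 4.0), Oas1g (22.7 ± 4.93), Oas1a (11.7 ± 1.53), Oas2 (6.67 ± 1.53) and Oas3 (3.33 ± 1.53). Neighbours in this order overlapped for Oasl2 with Oas1b and for Oas2 with Oas3. In untreated livers Oasl1 (7 ± 3) and Oas1g (3 ± 0) led, and from Oas1g down each gene overlapped the next. Oas1b stood with Oas1a near the bottom there, at 1.33 ± 0.577 for each.

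The summed level of the 7 members went from 17, 21 and 14 in the untreated libraries to 376, 385 and 329 in the LV libraries. Oasl1 made up 66.5%, 68.8% and 70.2% of that sum in LV livers and 41.2%, 47.6% and 28.6% in untreated ones, a difference of 29.4 percentage points. The share of Oas1g was lower in LV livers, at 6.19% ± 0.887 against 17.8% ± 3.57 (SD, n = 3). The share of Oas2 was 1.82% ± 0.281 against 10.3% ± 4.94 (SD, n = 3), that of Oas1a 3.21% ± 0.222 against 7.52% ± 1.85, and that of Oasl2 10.8% ± 0.994 against 15.8% ± 5.01. The Oasl2 shares of LV replicate 1 (11.7%) and untreated replicate 1 (11.8%) nearly met, and the difference of -5.05 points was -2.25 without untreated replicate 3. The share of Oas1b was 8.58% ± 1.36 in LV and 7.52% ± 1.85 in untreated livers, with overlapping values (exact permutation p = 0.7). For Oasl1, Oas1g, Oas2, Oas1a and Oasl2 the exact two-sided permutation p was 0.1, the smallest this design allows (0.14 after Benjamini-Hochberg adjustment over the 7 shares). Untreated sums are small whole numbers, so 1 unit of rounding moves an untreated share by several points.

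**Figure D2:**
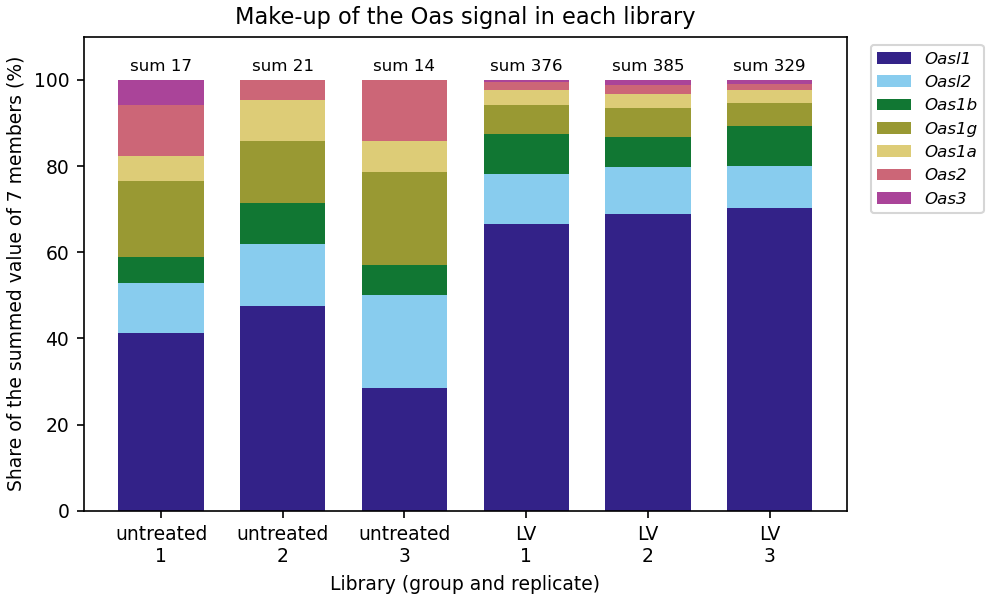
Share of each member (%, stacked) in the summed value of the 7 members, 1 bar per library, with the sum above the bar. Oasl1 fills 66.5% to 70.2% of the LV bars and 28.6% to 47.6% of the untreated bars.

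Fold changes were also compared between members, pair by pair. With a pseudocount of 1, 16 of the 21 pairs of members had log2 ratios whose LV and untreated values did not overlap. The pairs are drawn from 7 genes and are not independent. How often pairs of other genes are apart in this way was not computed. Each of the 16 had an exact permutation p = 0.1, the smallest possible, and an adjusted p of 0.131 over the 21 pairs, so none could pass a threshold of 0.05. The 5 pairs that overlapped were Oas1a with Oas1g, Oas2 or Oas3, Oas1b with Oasl2, and Oas2 with Oas3. With a pseudocount of 0.1, 12 pairs did not overlap, all of them among the 16 and with the same sign. The pairs lost were those of Oas3 with Oas1b, Oas1g, Oasl1 and Oasl2. Between Oas1g and Oas3 the difference in log2 fold change turned from 0.82 to -1.0, and between Oas3 and Oasl2 it went from -1.74 to 0.01.

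Among the treated livers, LV replicate 3 was the lowest in 5 of the 7 members: Oas1a, Oas1g, Oas2, Oasl1 and Oasl2. The share of all tested genes in which this library was lowest was not computed. The median rise over the members, relative to the untreated mean of log2(value + 1), was 2.70, 2.75 and 2.26 in LV replicates 1, 2 and 3. LV replicate 1 and LV replicate 2 each gave the highest value for some members. Among the untreated livers, replicate 2 alone was highest for Oas1a, Oas1b and Oasl1. LV replicate 3 and untreated replicate 2 are also the libraries with high male-biased genes, so these patterns may not be particular to the members. The untreated medians lay between -0.20 and 0.14, so variation within either group was small beside the difference between groups.

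The members lie in 2 groups on chromosome 5, in the RefSeq order of assembly GRCm38.p6. Oasl2 and Oasl1 are adjacent Oas genes, and the other 10 Oas genes form a second cluster, from Oas2 and Oas3 through the Oas1 copies, of which 6 were in the table. The nearest table genes were taken from either side of both loci, at most 3 a side. Most were not adjacent, since genes absent from the table lay between. There were 3 such genes before Ddx54, 2 before Ptpn11, 6 before Trafd1, 8 before Ankrd13a and 18 before Mvk. Of these neighbours, 1 of 11 rose, beside 3.76% of all tested genes, and their median log2 fold change was -0.03. On the far side of Oasl1 stood 2210016L21Rik (6, 8 and 8 in LV livers against 11, 12 and 10; limma adjusted p = 0.11). Beyond Oas2 came Ddx54, an RNA helicase gene, with 14, 17 and 14 against 17, 15 and 14 (adjusted p = 0.917). Beyond the Oas1 copies came Ptpn11, a phosphatase gene, with 19, 19 and 19 against 19, 20 and 15 (adjusted p = 0.736). The neighbour that rose was Trafd1, a regulator of innate signalling and the third table gene past the Oas1 copies. It had 157, 150 and 136 in LV livers against 40, 42 and 28 in the untreated ones (log2 fold change 2.0 ± 0.17, limma adjusted p = 0.00387). Its call was lost in the fit that omitted the pair of libraries with high male-biased genes (adjusted p = 0.0573).

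**Figure D3:**
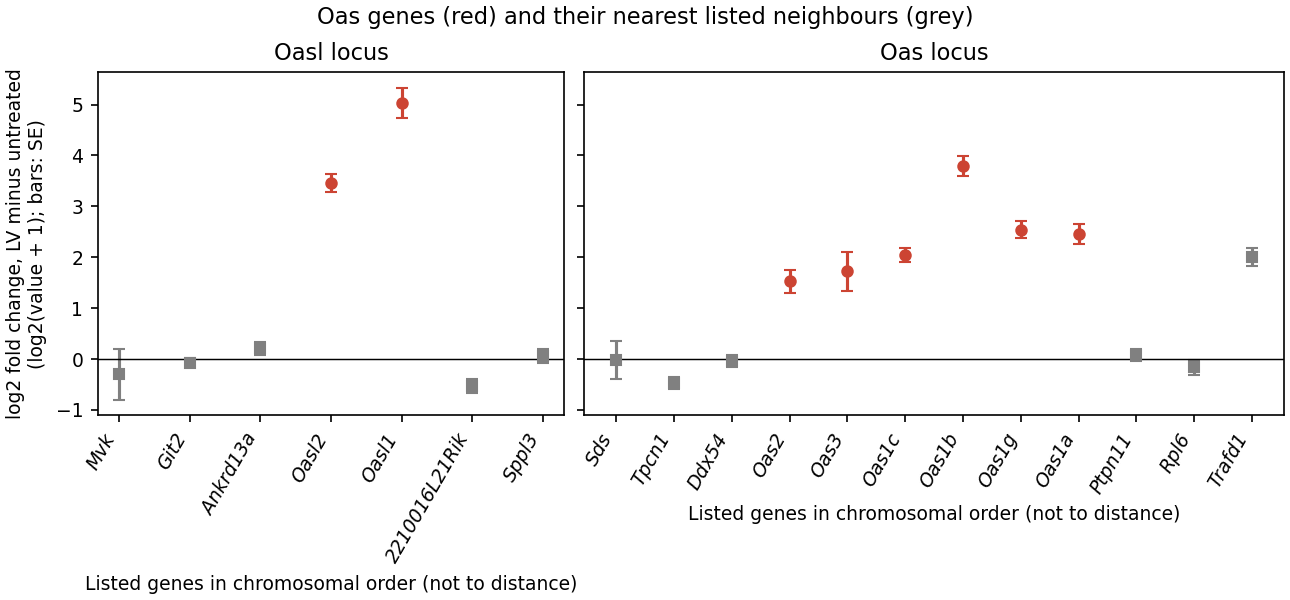
Log2 fold change (LV minus untreated, bars: SE) of the Oas genes (red circles) and their nearest table genes, at most 3 on each side (grey squares), in chromosomal order, not to distance. The Oas genes lie between 1.53 and 5.03, while the neighbours other than Trafd1 lie between -0.53 and 0.21.

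Genes tied to the action or turnover of 2-5A were followed next. Of the 3 listed genes of this kind, 0 passed in limma, and 1 had an unadjusted p under 0.05. Abce1, a ribosome recycling factor first described as an inhibitor of the 2-5A pathway, had 13, 11 and 11 in LV livers against 9, 13 and 9, with overlapping groups (limma adjusted p = 0.598). Pde12, which degrades 2-5A, had 5, 4 and 4 against 3, 3 and 3 (log2 fold change 0.41 ± 0.09, limma adjusted p = 0.0821). Akap7, whose central domain can also cleave 2-5A, had 3, 2 and 2 against 2, 3 and 4 (limma adjusted p = 0.587).

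Other genes of nucleic acid sensing, most of them tied to RNA, rose beside the OAS family. The list holds sensors, adaptors and regulators. Of 11 measured genes in this list of 13, 8 were higher and 3 did not pass, beside 3.76% of all tested genes called higher. The median log2 fold change of the list was 2.25. Mb21d1 and Tmem173, listed for the sensing of DNA, were not found among the genes of the table. Dhx58, a regulator of RIG-I-like receptors, had 64, 69 and 57 in LV against 7, 9 and 5 in untreated livers (log2 fold change 3.03 ± 0.20). Eif2ak2, which encodes the kinase PKR, another enzyme switched on by double-stranded RNA, had 24, 21 and 18 against 3, 4 and 2 (2.48 ± 0.22). Adar, which edits double-stranded RNA and so limits its sensing by OAS, had 48, 51 and 41 against 7, 11 and 6 (2.44 ± 0.22). In limma the adjusted p values of these genes were 0.00181, 0.00407 and 0.00486. Ddx58 and Ifih1, which encode the RNA sensors RIG-I and MDA5, rose by 2.25 ± 0.11 and 2.20 ± 0.18 on the log2 scale. Tlr3, the endosomal receptor for double-stranded RNA, rose by 2.73 ± 0.18, Zbp1, which binds Z-form RNA and DNA, by 4.67 ± 0.21 and Trim25, a ubiquitin ligase that acts on RIG-I, by 1.60 ± 0.22. Trim25 was no longer called when LV replicate 1 or 2, or untreated replicate 1 or 3, was omitted (limma adjusted p between 0.0852 and 0.114). The adaptors showed no such rise: Mavs had 37, 36 and 47 in LV against 40, 51 and 39 in untreated livers (limma adjusted p = 0.724), and Ticam1 8, 8 and 10 against 8, 10 and 8 (adjusted p = 1.0). Prkra, an activator of PKR, had 7, 7 and 8 against 10, 10 and 8 (limma adjusted p = 0.242).

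Among genes that carry the interferon signal to Oas promoters, the 5 that rose were all transcription factors; Irf2, Irf3 and Irf5, also transcription factors, did not pass. Of 14 measured genes in this list of 15, 5 were higher and 9 did not pass, beside 3.76% of all tested genes called higher. The median log2 fold change of the list was 0.55. With LV replicate 1, LV replicate 2 or untreated replicate 1 omitted, 3 were higher. Stat2 and Irf9, which act together at ISREs, both rose. Stat2 had 61, 59 and 55 in LV against 21, 20 and 18 in untreated livers (log2 fold change 1.52 ± 0.09), and Irf9 had 33, 32 and 34 against 8, 13 and 8 (1.70 ± 0.19). In limma the adjusted p values were 0.00144 and 0.00987. Irf9 was no longer called when any of these same 4 libraries was omitted, that is LV replicate 1 or 2 or untreated replicate 1 or 3 (limma adjusted p between 0.0562 and 0.0677). Irf7 had 181, 201 and 143 against 15, 28 and 14, and Irf1, a further activator at ISREs, 92, 81 and 77 against 21, 17 and 15 (limma adjusted p = 0.00486 and 0.00178). Irf1 missed the threshold when LV replicate 3 and untreated replicate 2 were both omitted (adjusted p = 0.0526). Irf8 passed narrowly (1.57 ± 0.29, limma adjusted p = 0.0461), and it held its call with 1 library omitted only when that was LV replicate 3 (otherwise adjusted p between 0.137 and 0.174).

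The receptors, the kinases and the remaining transcription factors did not pass. Ifnar1 and Ifnar2, the subunits of the type I interferon receptor, had 8, 8 and 8 against 7, 8 and 7, and 70, 67 and 64 against 72, 61 and 64. Jak1, a kinase bound to the receptor, had 37, 36 and 35 against 24, 29 and 23, without overlap (log2 fold change 0.50 ± 0.11, limma adjusted p = 0.0734). It passed with quantile normalization (adjusted p = 0.0458), with median of ratios scaling (0.036), without untreated replicate 2 (0.0282) and without that library and LV replicate 3 (0.044). Tyk2, the partner kinase, had 7, 8 and 8 against 11, 9 and 7 (limma adjusted p = 0.578). Irf3, which is activated by phosphorylation and drives early interferon genes, had 30, 27 and 29 against 29, 30 and 35 (adjusted p = 0.56). Irf2, which competes with Irf1 at ISREs, had 47, 46 and 62 against 23, 42 and 30 (limma adjusted p = 0.196), and Irf5 had 9, 16 and 18 against 11, 13 and 10 (adjusted p = 0.612). Ifngr1 and Ifngr2, the subunits of the interferon-gamma receptor, had log2 fold changes of -0.27 and 0.60 (limma adjusted p = 0.465 and 0.0767). Without untreated replicate 3, Ifngr2 passed (adjusted p = 0.029). Ifnb1 was not among the genes of the table.

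**Figure D4:**
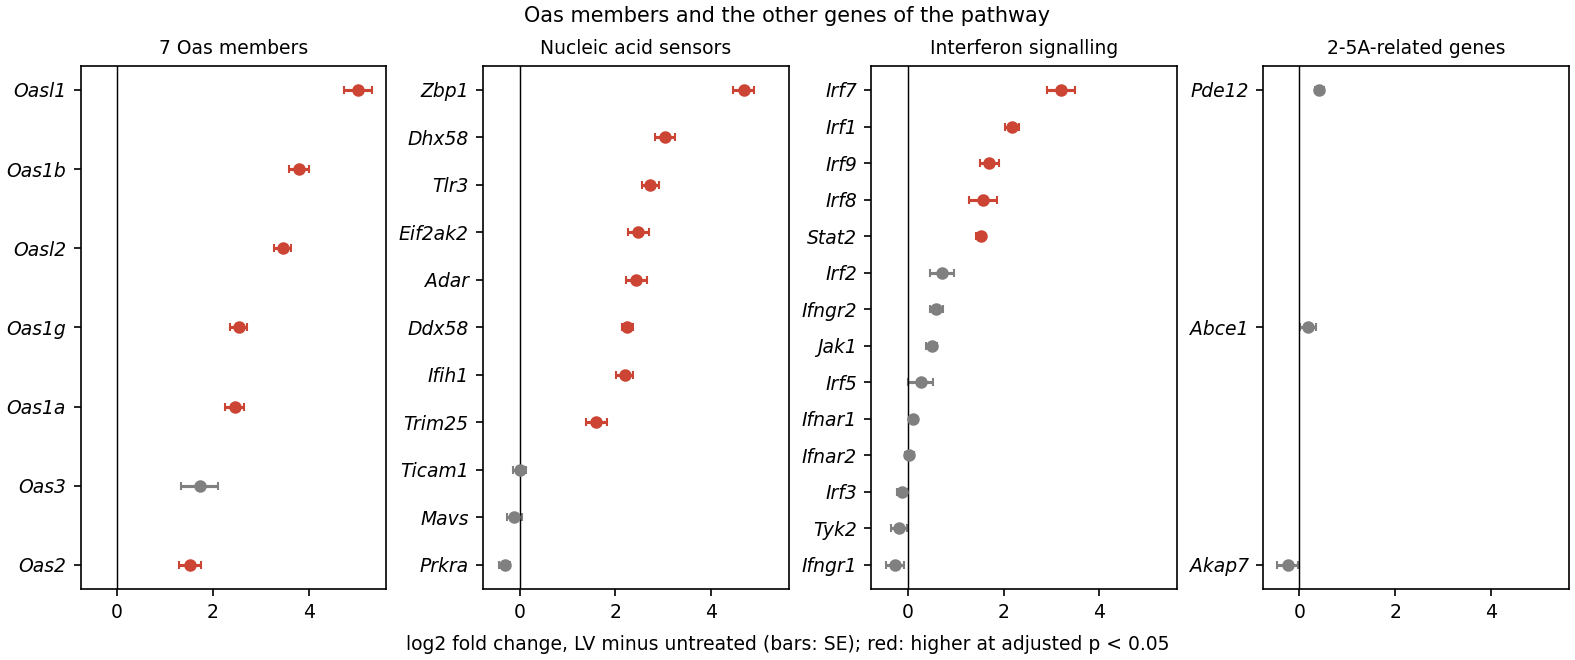
Log2 fold change (LV minus untreated, bars: SE) of the 7 members and of 11 genes of the sensor list, its adaptors and regulators included. Beside them stand 14 interferon signalling genes and 3 genes of 2-5A action or turnover. Red marks genes higher at an adjusted p under 0.05 in limma. In the sensor list 8 genes passed and in the signalling list 5, all 5 of them transcription factors; no adaptor, interferon receptor or Janus kinase gene did.

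The genes outside the family with the profile most like the members' mean were Trex1, AI451617, Trim30, Dhx58 and Tnfsf10. Likeness was the root mean square difference of log2(value + 1) over the 6 libraries after centring each gene, and it ran from 0.119 for Trex1 to 0.158 for Tnfsf10. Trex1, a DNA exonuclease, had 97, 93 and 80 in LV livers against 11, 13 and 12. Tnfsf10, the death ligand TRAIL, had 13, 12 and 11 against 1, 1 and 1. The members themselves differed from their own mean profile by 0.229 (Oas1g) to 1.08 (Oasl1), so the mean stands for Oas1g and Oas1a (0.289) better than for Oasl1. Apol9b, which shares the 16-letter promoter element with Oas1a, Oas1g and Oas1c, had 135, 113 and 174 in LV livers against 43, 95 and 35 (log2 fold change 1.39 ± 0.40, limma adjusted p = 0.145); it was looked up after the element had been seen.

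Whole liver holds several cell types, and fewer cells of a type cannot be told apart from less RNA per cell. Kupffer cell markers (10 of 11 measured) summed to 135 to 315 in LV and 248 to 368 in untreated livers. Sinusoidal endothelial markers (9 of 9 measured) summed to 79 to 149 in LV and 162 to 184 in untreated livers, without overlap. Much of that gap came from Clec4g, with 11, 43 and 33 in LV livers against 55, 54 and 58. Lyve1 went the other way (10, 5 and 5 against 3, 3 and 2). Pecam1 also had a positive log2 fold change (0.09), and the rest of this list had negative ones. No gene of either list was called in limma and none was at 0 in any library. Of 9 neutrophil and monocyte markers Lyz2 alone was measured (66 to 101 in LV, 50 to 64 in untreated livers), and 0 of 9 lymphocyte markers were measured. Of 5 markers of plasmacytoid dendritic cells 2 were measured, and they differed. Tcf4 was called higher, with 5 in each LV and 3 in each untreated library and so no measured spread (limma adjusted p = 0.00616). Ccr9 was not called, with 3, 3 and 3 in LV livers against 3, 4 and 3 (log2 fold change -0.11, limma adjusted p = 0.606). The part of these cells in the rise of the Oas genes was not tested.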

How the data were processed

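The 7 Oas genes were read from a table of 8390 genes and 6 libraries, each column matched to 1 sample by its description. No unit is named; the deposited whole numbers look like a rounded score that corrects for library size and transcript length. This is judged from the values: replicate variance over the mean was 0.246 (LV) and 0.238 (untreated) in low genes, under the 1 of counted reads, and the lowest values (first percentile) were 6.17 among the shortest and 1.0 among the longest transcripts (lowest and highest decile of length) but 7.8 and 9.2 when multiplied by length in kb. Per the submitters' processing notes the build was mm9; the aligner, annotation and counting method were not given in the sources used here. Genes at 1 or more in 3 or more libraries (8386) entered a limma fit of log2(value + 1) by group (limma 3.58.1, R 4.3.3, variance trend on intensity), with two-sided p-values and Benjamini-Hochberg adjustment over all tested genes, threshold 0.05. The fit was also run on simulated data with planted changes and noise drawn separately for each gene. That check does not cover differences shared by many genes of a library, and its outcome is not given here. Ratios and shares were compared by exact permutation over samples.

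Members, gene lists and tests were chosen with earlier results of these data known. Named genes were all members, all measured genes of the lists, the 3 nearest table genes on each side of each locus, and the 5 genes with the most similar profile; a few genes under this rule are not reported here and were left out of the counts. Pde12 and Mavs were matched through a unique RefSeq synonym. Symbols of Oas genes changed over time (Oas1b is an older name of Oas1g, and Oasl2 of Oas1c, in RefSeq), and the table's symbols were taken as given. Promoters come from RefSeq (GRCm38.p6) and transcripts from GENCODE M21; 6 of the 8 Oas genes of the table had a promoter window, and the table itself holds no positions.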

Additional observations from a re-analysis of the deposited data

How the results depend on the processing

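The calls of Oas1a, Oas1b, Oas1g, Oasl1 and Oasl2 held under all 14 alternatives and at an adjusted p under 0.01. The number of members called higher was 6, and lay between 5 and 7 over the alternatives: 7 with median of ratios or upper quartile scaling, which added Oas3, and between 5 and 6 with 1 library left out, where Oas2 was lost. Upper quartile scaling, the alternatives for neighbouring genes and the other pseudocount for pairs of members were added after seeing the data. With a mean of at least 5 required, Oas2 and Oas3 were not tested. The replicate numbers did not pair the samples (correlations of deviations 0.28, -0.47 and -0.34); with a replicate block, 5 members were called, Oas2 having an adjusted p of 0.153, and 145 of all genes were higher in place of 315. With 1 library left out that number was between 119 and 313. The count of neighbouring genes that rose fell from 1 to 0 without LV replicate 3 and untreated replicate 2. The difference in the share of Oas3 was -1.05 percentage points and lay between -2.03 and 0.914 with 1 library left out, changing sign without untreated replicate 1, the only untreated library with a value above 0. The difference for Oasl2, -5.05 points, lay between -7.08 and -2.25 with 1 library left out. It was -9.47 with Oas1a and Oas1g out of the sum. The difference for Oas1b went from 1.07 to -0.60 points when Oas1a and Oas1g were left out of the sum. The number of signalling genes called higher was 5, rose to 6 with quantile normalization or median of ratios scaling, fell to 3 with a replicate block and lay between 3 and 5 with 1 library left out. The count of genes called in the sensor list never moved by more than 1.5 times. Rounded values limit the low members most, and without read counts no detection limit can be given.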
